A study of Mus musculus with 27 samples.

Results

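The miR-181 family was followed through its 4 guide strands, miR-181a-5p, miR-181b-5p, miR-181c-5p and miR-181d-5p, which were chosen by name from the 844 mature miRNAs that the small-RNA series lists. All 4 were found, in 26 of 27 libraries for miR-181c-5p and in 27 of 27 for the other members. The series profiled miRNAs of the suprachiasmatic nucleus (SCN) of C57BL/6 mice. Its tissue libraries were SCN, hypothalamus and cortex, 2 of each. Its neuron libraries covered 3 types of SCN neuron, AVP (vasopressin), VIP (vasoactive intestinal peptide) and CCK (cholecystokinin), again with 2 libraries each, and no label tells how these cells were obtained. At CT18 (circadian time, in hours), 2 SCN libraries labelled LP stood beside 2 labelled CTRL. The labels leave LP unexplained, while the design text speaks of a light response. An SCN time course had 11 libraries, 1 for each sampling hour between ZT2 and ZT42 (zeitgeber time, in hours from lights on). No genotype, transgene or age is given for any group. Nothing in the labels says that replicates came from separate animals, so p-values measure the spread between libraries, which may be technical.

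A miRNA guides a silencing complex to messenger RNAs that pair with its seed, bases 2 to 8 from the 5′ end, so miRNAs with the same seed can share targets. The miR-181 family is abundant in brain, where miR-181a is known to repress the AMPA receptor subunit GluA2, and it is also known for setting the sensitivity of developing T cells. The SCN is the central circadian clock of mammals, and miR-181a has been linked to the clock gene PER3 in human stromal cells.

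The guide strands are shown because the 4 miRNAs differ by few bases, which bears on how reads can be told apart. Sequences are from RefSeq (GRCm38.p6), 5′ to 3′, with the seed in capitals.
miR-181a-5p: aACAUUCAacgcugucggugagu
miR-181c-5p: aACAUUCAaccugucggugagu
miR-181b-5p: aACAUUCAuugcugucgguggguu
miR-181d-5p: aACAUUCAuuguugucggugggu
The seed ACAUUCA was found in 4 of 1679 mature mouse miRNA names in that table, and all 4 were these members. Outside the seed, miR-181a-5p and miR-181c-5p differed by 1 internal base that miR-181c-5p lacks, with 0 mismatches once aligned. The strands of miR-181b-5p and miR-181d-5p differed by C12U and by 1 base more at the 3′ end of miR-181b-5p, where positions count from 1 at the 5′ end of the first-named miRNA. Those of miR-181a-5p and miR-181b-5p differed by A9U, C10U and A21G, and by 1 base more at the 3′ end of miR-181b-5p. Mature lengths were 22 to 24 nt, so levels of the members are compared as reads with no length scaling. How the authors counted reads that match more than 1 miRNA is not given in the sources used here, and the split between miR-181b-5p and miR-181d-5p is uncertain to that extent.

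The members come from 3 clusters of precursor genes (GRCm38 coordinates). Mir181a-1 (chr1:137966455-137966541, plus strand) lies 97 bases before Mir181b-1 (chr1:137966639-137966718, plus strand), both in exons of the long noncoding RNA A430106G13Rik. Mir181a-2 (chr2:38852735-38852810, plus strand) lies 1019 bases before Mir181b-2 (chr2:38853830-38853918, plus strand), in an intron of Nr6a1 on the opposite strand. Mir181c (chr8:84178873-84178961, minus strand) and Mir181d (chr8:84178716-84178787, minus strand) are 85 bases apart in an intron of Nanos3 on the same strand. The guide strands of miR-181a and miR-181b are made from clusters on chromosomes 1 and 2 and carry no mark of their origin, as the precursors of miR-181a show (mature strands in capitals).
Mir181a-1: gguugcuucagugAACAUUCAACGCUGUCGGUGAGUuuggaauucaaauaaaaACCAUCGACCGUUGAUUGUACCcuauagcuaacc
Mir181a-2: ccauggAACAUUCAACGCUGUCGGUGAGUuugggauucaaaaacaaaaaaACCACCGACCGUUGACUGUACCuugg
The opposite strands differ between the copies, and the files list miR-181a-1-3p from chromosome 1. They have no entry named miR-181a-2-3p.

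Levels are given in CPM, which are the deposited values, scaled to a total of about 10000000 per library, divided by 10. Depth was 469808 to 5133920 miRNA reads per library, and the AVP and CCK libraries were the shallowest, with 469808 to 908476 reads, while the VIP libraries had 2812318 and 2786568. A count of 0 allows a level of up to 0.585 to 6.39 CPM (3 reads), for counting error only. The marker lists did not go with every label. The hypothalamic pair miR-7a-5p and miR-7b-5p summed to 48276 to 51562 CPM in SCN tissue, 79929 to 81358 in hypothalamus and 4232 to 5295 in cortex. In the CT18 libraries labelled SCN the sum was only 2494 to 5673 CPM (LP) and 2034 to 2914 CPM (CTRL), and in the time course it was 11940 to 52766 CPM. Among the neurons, 4 vascular miRNAs summed to 3.30 to 176 CPM and 4 leukocyte miRNAs to at most 2.0 CPM, while the neuronal list (miR-124-3p, miR-9-5p, miR-128-3p) reached 2867 to 4011 CPM in AVP libraries, 13107 to 17507 in VIP libraries and 10632 to 12202 in CCK libraries, below the 32958 to 38301 of SCN tissue. The oligodendrocyte pair (miR-219-5p, miR-338-3p) summed to 20.9 to 134 CPM in AVP libraries, 242 to 595 in VIP libraries and 443 to 509 in CCK libraries, against 394 to 520 in SCN tissue, with miR-219-5p at 0 in all 6 neuron libraries. The red-cell list (miR-451a, miR-144-3p, miR-486-5p) summed to 2107 to 2164, 943 to 1169.7 and 980.1 to 1015 CPM in the same order, against 482 to 581 in SCN tissue. Its sum was nearly all miR-486-5p, and miR-451a and miR-144-3p were at 0 in the AVP and CCK libraries. Levels of the same tissue also differed between the 4 sets of libraries: miR-181a-5p averaged 5023 CPM in SCN tissue, 2285 CPM in the time course and 5975 CPM in CTRL at CT18. The sets were therefore not tested against each other.

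The family was led by miR-181a-5p in 26 of 27 libraries. Its level ran from 1406 CPM in VIP replicate 2 to 8544 CPM in cortex replicate 1, a range of 6.08-fold, and it ranked between place 24 and place 53 among the miRNAs of a library. The others were lower: miR-181b-5p ran from 186.5 CPM in AVP replicate 1 to 1149 CPM in LP replicate 2, and miR-181d-5p from 90.5 CPM at ZT22 to 821 CPM in LP replicate 1. The widest range belonged to miR-181c-5p, from 0 CPM in AVP replicate 1 to 2229 CPM in VIP replicate 1, where it was the most abundant member.

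The order of the groups was not the same for the 4 members, and it crosses library sets, so it is a description. For miR-181a-5p it was cortex, CTRL, LP, SCN, hypothalamus, CCK, time course, AVP and VIP, from 8147 ± 562 to 1802 ± 561 CPM (SD, n = 2 each); CTRL and LP, and the last 3 groups, did not differ beyond their summed SDs. For miR-181b-5p it was LP, CTRL, cortex, hypothalamus, SCN, CCK, VIP, time course and AVP. Within that order cortex and hypothalamus, and the run from SCN to the time course, were within their spread of the next group. For miR-181c-5p VIP neurons came first with 1639 ± 834 CPM, followed by hypothalamus with 739 ± 18.1, and AVP neurons came last with 9.90 ± 14 (SD, n = 2 each). The groups between, from cortex through SCN, CCK and LP to CTRL, were each within the spread of the next, and the time course lay below them. For miR-181d-5p it was LP, CTRL, VIP, CCK, hypothalamus, SCN, cortex, time course and AVP; LP and CTRL, VIP and CCK, hypothalamus and SCN, and the time course and AVP were not apart beyond their spread.

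**Figure D1:**
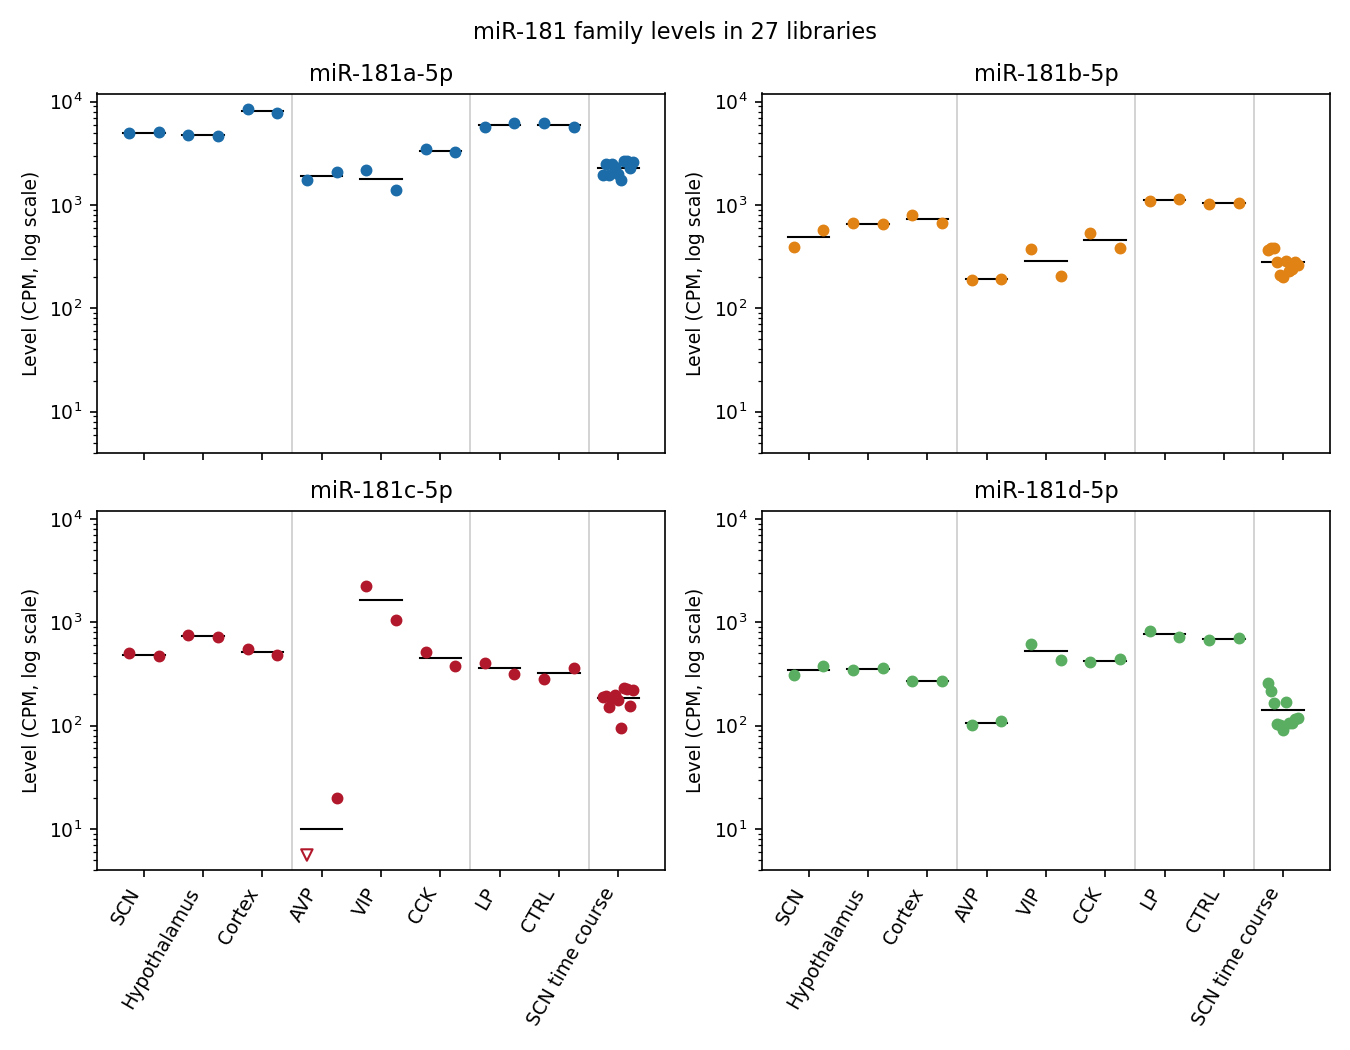
Level of each miR-181 member in CPM on a log scale, by group; points are libraries, bars are group means, vertical lines separate the 4 sets of libraries. The open triangle marks the AVP library with 0 reads of miR-181c-5p, drawn at its limit of 5.58 CPM. Within SCN neurons, miR-181c-5p spans 0 to 2229 CPM and miR-181a-5p 1406 to 3462 CPM.

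Composition, the share of each member in the summed level of the 4, is free of the library total. Both miR-181a-5p and miR-181b-5p are made from the chromosome 1 and 2 clusters. Alone, miR-181a-5p took 79.3% ± 1.80 of the family in SCN tissue, 73.0% ± 0.184 in hypothalamus and 84.2% ± 0.303 in cortex (SD, n = 2 each). Along the time course it took 78.8% ± 4.13 (SD, n = 11), and at CT18 72.3% ± 2.12 in LP and 74.5% ± 2.02 in CTRL (SD, n = 2 each). Neurons differed more: it was 86.1% ± 0.467 for AVP, 43.1% ± 3.51 for VIP and 71.7% ± 1.86 for CCK libraries (SD, n = 2 each). The chromosome 8 pair, miR-181c-5p and miR-181d-5p together, made up 5.22% ± 0.340 of the family in AVP neurons, 50.2% ± 3.34 in VIP neurons and 18.6% ± 0.351 in CCK neurons, beside 13.1% ± 0.0311 in SCN tissue (SD, n = 2 each). The 3 neuron types did not overlap in that share, for which no test was made.

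**Figure D2:**
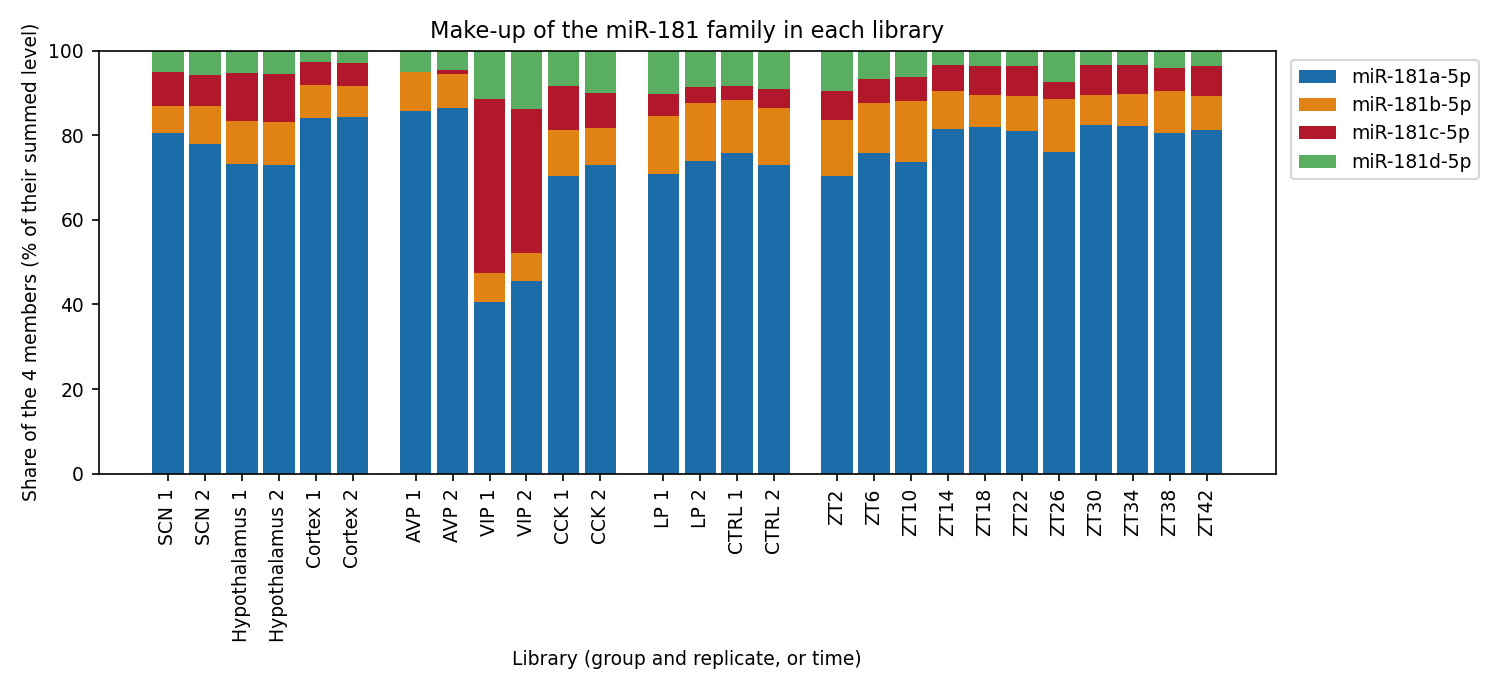
Share of each member in the summed level of the 4, in percent, with 1 bar per library and gaps between the 4 sets of libraries. The share of miR-181c-5p averages 0.412% in AVP neurons, 37.6% in VIP neurons and 9.49% in CCK neurons.

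Between tissues, the question was how miRNA profiles of the SCN differ from those of other brain regions. Compared with hypothalamus, the SCN had less miR-181c-5p and, less firmly, less miR-181b-5p, while miR-181a-5p and miR-181d-5p did not pass the test. Compared with cortex, the SCN had less miR-181a-5p and miR-181b-5p. With the deposited scaling, cortex stood out from both other tissues by miR-181a-5p, and, less firmly, hypothalamus by miR-181c-5p. Quantile normalization ended the call of miR-181a-5p between SCN and cortex. Both it and median-ratio scaling ended that of miR-181c-5p between hypothalamus and cortex. Of the 4 members, 2 passed between SCN and hypothalamus (both lower in SCN), where 70.9% of all miRNAs tested passed (28% higher and 42.9% lower). Between SCN and cortex 2 passed (both lower in SCN), where 80.2% of all did (41.3% higher and 38.9% lower), and between hypothalamus and cortex 3 passed (2 higher and 1 lower), where 58.2% of all did (41.8% higher and 16.4% lower). Members whose libraries did not overlap numbered 3, 3 and 4 in these comparisons, beside 87.3%, 90.2% and 83.9% of all miRNAs. With so many miRNAs passing, these counts are not a result about the family. In bulk tissue, fewer cells of a type and less RNA per cell cannot be told apart.

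The most abundant member, miR-181a-5p, had 5004 and 5042 CPM in SCN, 4803 and 4666 CPM in hypothalamus and 8544 and 7749.8 CPM in cortex. Both cortex libraries lay above all 4 others, and the SCN and hypothalamus libraries lay close together without overlap. By limma with Benjamini-Hochberg adjustment over 378 miRNAs, SCN against cortex differed by -0.70 ± 0.09 (log2, SE; adjusted p = 6.86e-05) and hypothalamus against cortex by -0.78 ± 0.09 (adjusted p = 7.44e-05). SCN against hypothalamus differed by 0.09, with a 95% interval of -0.12 to 0.29 (adjusted p = 0.416).

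The second member of those clusters, miR-181b-5p, had 396 and 573.5 CPM in SCN, 667.5 and 652 CPM in hypothalamus and 804 and 674 CPM in cortex. The SCN libraries were lowest and also the farthest apart from each other. The difference was -0.47 ± 0.18 for SCN against hypothalamus (log2, SE; adjusted p = 0.0386) and -0.63 ± 0.18 for SCN against cortex (adjusted p = 0.00866, limma). Hypothalamus against cortex gave -0.16, with a 95% interval of -0.56 to 0.24 (adjusted p = 0.473).

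The levels of miR-181c-5p were 501 and 473 CPM in SCN, 752 and 726 CPM in hypothalamus and 555 and 483.5 CPM in cortex. Hypothalamus was above all 4 other libraries, and SCN and cortex overlapped. SCN fell by 0.60 on the log2 scale against hypothalamus (SE 0.12, adjusted p = 0.00198), which is 0.659 of the hypothalamic mean, and hypothalamus was higher than cortex by 0.51 ± 0.12 (adjusted p = 0.0061, limma). SCN against cortex gave -0.09, with a 95% interval of -0.37 to 0.19 (adjusted p = 0.524).

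Its cluster partner miR-181d-5p had 310.5 and 374.5 CPM in SCN, 345 and 358 CPM in hypothalamus and 270.0 and 273 CPM in cortex. Cortex was below the other tissues, whose libraries overlapped. Hypothalamus exceeded cortex by 0.37 ± 0.14 (log2, SE; adjusted p = 0.0417), and SCN exceeded cortex by 0.33 ± 0.14 without passing the threshold (adjusted p = 0.0501, limma). SCN against hypothalamus gave -0.04, with a 95% interval of -0.36 to 0.27 (adjusted p = 0.8).

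Scaling bore on several calls. The deposited scaling differed from median-ratio scaling by -0.26 (log2) for SCN against hypothalamus, 0.16 for SCN against cortex and 0.42 for hypothalamus against cortex. With median-ratio scaling, miR-181a-5p passed as higher in SCN than in hypothalamus (0.34, adjusted p = 0.0166) and miR-181b-5p no longer passed there (-0.21, adjusted p = 0.36), whereas miR-181c-5p still passed (-0.34, adjusted p = 0.0385). The sign of miR-181d-5p between SCN and hypothalamus turned to 0.22 (adjusted p = 0.215). Between hypothalamus and cortex the same scaling gave 0.09 for miR-181c-5p (adjusted p = 0.598), -0.05 for miR-181d-5p (adjusted p = 0.812) and -0.58 for miR-181b-5p, which then passed (adjusted p = 0.031). With quantile normalization, miR-181a-5p and miR-181b-5p missed the threshold between SCN and cortex (-0.20 and -0.65, adjusted p = 0.0567 and 0.0513). Between SCN and hypothalamus it gave 0.62 for miR-181a-5p, which passed (adjusted p = 0.0011), and -0.33 for miR-181b-5p, which did not (adjusted p = 0.273). Between hypothalamus and cortex it gave 0.25 for miR-181c-5p and -0.13 for miR-181d-5p, and neither passed (adjusted p = 0.171 and 0.485).

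Without a filter on low values, miR-181b-5p missed the threshold between SCN and hypothalamus (adjusted p = 0.113), as it did in a fit of those 2 tissues alone (0.0517), and miR-181d-5p missed it between hypothalamus and cortex (0.0546). Between SCN and cortex, miR-181d-5p passed with a pseudocount of 10 (adjusted p = 0.0496) and with a minimum value of 1000 (0.0416). Some tissue calls also rested on 1 library. The call of miR-181b-5p between SCN and hypothalamus was lost without SCN replicate 1 (-0.20, adjusted p = 0.221), without hypothalamus replicate 1 or 2 (adjusted p = 0.0934 and 0.0669) and without cortex replicate 1 or 2 (adjusted p = 0.0503 and 0.0501). Its call between SCN and cortex was lost without cortex replicate 1 (-0.50, adjusted p = 0.0772). Between hypothalamus and cortex, miR-181d-5p missed the threshold without any 1 of the 4 libraries (adjusted p = 0.119 to 0.178), and miR-181c-5p without cortex replicate 2 (0.41, adjusted p = 0.0609). Between SCN and cortex, miR-181d-5p passed without SCN replicate 1 (0.46, adjusted p = 0.0103). Leaving out any 1 of the 6 libraries did not end the calls of miR-181a-5p against cortex or of miR-181c-5p between SCN and hypothalamus. Marker lists moved with the tissues too: 4 vascular miRNAs summed to 3850 to 3863 CPM in SCN, 10880 to 11612 in hypothalamus and 10824 to 11369 in cortex, and the oligodendrocyte pair (miR-219-5p, miR-338-3p) to 394 to 520, 2330 to 2808 and 1028 to 1453 CPM. Their part in the family's differences was not tested.

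**Figure D3:**
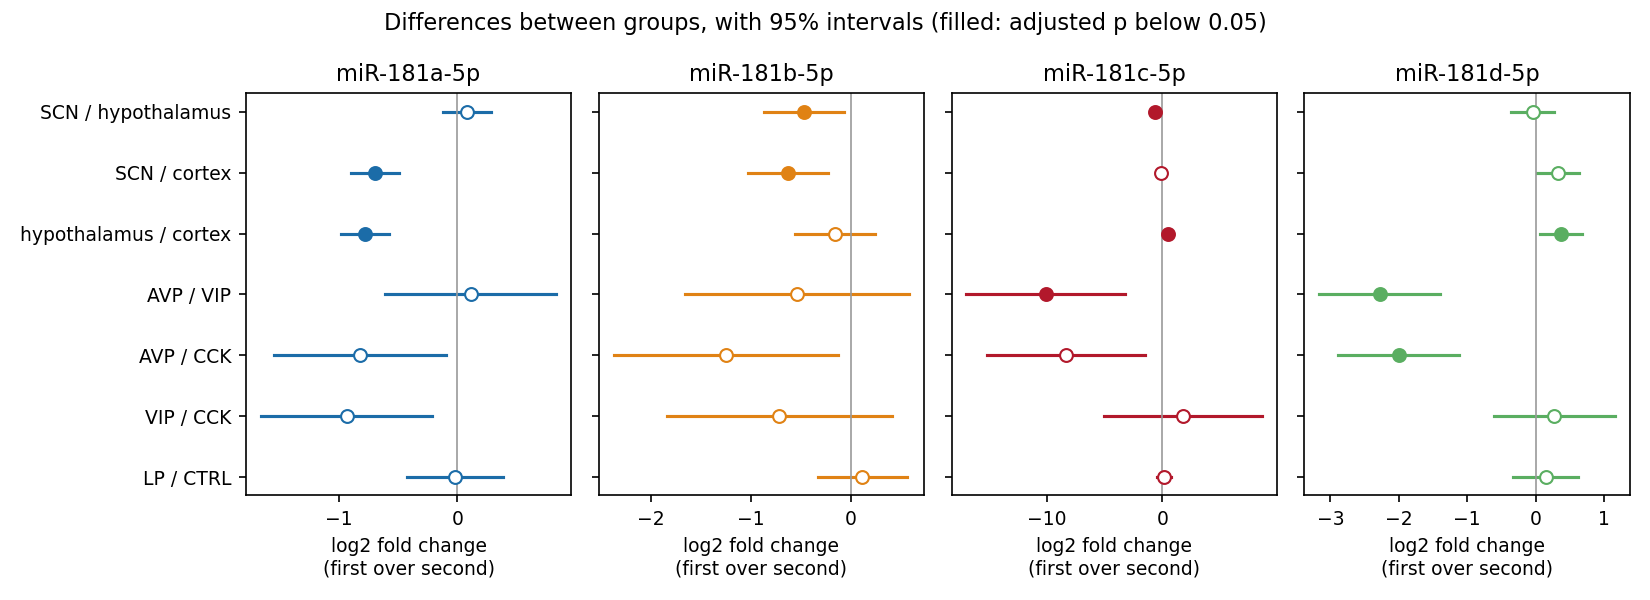
Log2 differences of the 4 members between the groups named at left (first over second) from limma, with 95% intervals; filled points have an adjusted p below 0.05, and each panel has its own horizontal scale. AVP neurons lie lowest for miR-181c-5p (-10.08 against VIP) and miR-181d-5p (-2.28 against VIP). Under median-ratio scaling the sign turns for miR-181d-5p in SCN against hypothalamus and in hypothalamus against cortex, for miR-181a-5p in AVP against VIP and for miR-181b-5p in VIP against CCK.

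The opposite strands, cut from the other side of the same precursors and usually degraded, gave a second readout of the loci. They are shown for the entries above 10 CPM in tissue, with bases 2 to 8 in capitals.
miR-181a-1-3p: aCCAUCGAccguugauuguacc
miR-181c-3p: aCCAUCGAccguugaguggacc
The chromosome 1 strand miR-181a-1-3p had 40.5 and 47.4 CPM in SCN, 118 and 104.5 CPM in hypothalamus and 218 and 197 CPM in cortex. The 3 tissues did not overlap, and SCN was lowest. It fell by 1.34 on the log2 scale in SCN against hypothalamus (SE 0.16, adjusted p = 8.06e-05) and by 2.24 in SCN against cortex (SE 0.16, adjusted p = 1.45e-06, limma), while hypothalamus fell by 0.90 against cortex (SE 0.16, adjusted p = 0.00129). All 3 calls kept their sign and their side of the threshold under every alternative run for them. Relative to the guide strand miR-181a-5p, it amounted to 0.875% ± 0.0924 in SCN, 2.35% ± 0.152 in hypothalamus and 2.54% ± 0.00523 in cortex (SD, n = 2 each). With the deposited scaling, the guide thus differed little between SCN and hypothalamus while the chromosome 1 opposite strand differed 2.53-fold. The guide passed as higher in SCN with median-ratio scaling (0.34, adjusted p = 0.0166) and with quantile normalization (0.62, adjusted p = 0.0011, limma). The chromosome 8 strand miR-181c-3p had 99.8 and 93.2 CPM in SCN, 143 and 132.5 CPM in hypothalamus and 118.5 and 121 CPM in cortex, in the same order as its guide strand. SCN was lower than hypothalamus by -0.51 ± 0.15 (log2, SE; adjusted p = 0.0114), a call that was lost with median-ratio scaling (-0.25, adjusted p = 0.143) and without hypothalamus replicate 1 (-0.46, adjusted p = 0.0934). Its share of both miR-181c strands was 16.5% ± 0.100 in SCN, 15.7% ± 0.376 in hypothalamus and 18.8% ± 1.68 in cortex (SD, n = 2 each). The strands miR-181b-1-3p, miR-181b-2-3p and miR-181d-3p stayed at or below 1.90 CPM in every library.

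Among the 3 SCN neuron types, AVP neurons had little miR-181c-5p and less miR-181d-5p than VIP neurons, and VIP neurons had the highest miR-181c-5p of the series. No difference of miR-181a-5p or miR-181b-5p passed the test. Of the 4 members, 2 passed as lower in AVP than in VIP, where 32.8% of all miRNAs tested passed (18% higher and 14.8% lower), and 1 as lower in AVP than in CCK, where 16.7% did (2.62% higher and 14.1% lower). Between VIP and CCK 0 passed by limma, 1 of them (miR-181a-5p) with an unadjusted p under 0.05, where 29.8% of all passed (8.2% higher and 21.6% lower). Members whose libraries did not overlap numbered 3, 4 and 3, beside 64.6%, 58% and 62.6% of all miRNAs.

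For miR-181c-5p, AVP neurons had 0 and 19.8 CPM, VIP neurons 2229 and 1049 CPM and CCK neurons 518 and 378 CPM. In reads this was 0 and 18 for AVP, 6261 and 2921 for VIP and 243 and 184 for CCK. The exact (Clopper-Pearson) 95% intervals, which cover counting error only, were 0 to 6.87 and 11.7 to 31.3 CPM for the AVP libraries. The types did not overlap: the mean of VIP was 166 times that of AVP and 3.66 times that of CCK, although VIP replicates themselves differed 2.12-fold. Taken against AVP replicate 2 alone, the VIP mean was 82.8 times as high, and against AVP replicate 1, at its limit of 3 reads, at least 293-fold higher. The fitted difference of AVP against VIP was -10.08 ± 2.59 (log2, SE; adjusted p = 0.043, limma over 305 miRNAs), a size that depends on the pseudocount because 1 AVP library was at 0 (-8.39 with a pseudocount of 10, adjusted p = 0.013). It was -6.26 without AVP replicate 1 (adjusted p = 0.0142) and -13.90 without AVP replicate 2 (adjusted p = 0.00405). AVP against CCK gave -8.29 ± 2.59 (adjusted p = 0.113) and passed with a pseudocount of 10 (-6.60, adjusted p = 0.0379), with quantile normalization (-7.46, adjusted p = 0.00471), without AVP replicate 1 (-4.47, adjusted p = 0.0418) and without AVP replicate 2 (-12.11, adjusted p = 0.00854). VIP against CCK gave 1.79, with a 95% interval of -5.05 to 8.63 (adjusted p = 0.679). The call between AVP and VIP was lost without VIP replicate 1 or 2 (adjusted p = 0.16 and 0.134), without CCK replicate 1 or 2 (adjusted p = 0.0719 and 0.0716), in a fit of the 2 types alone (adjusted p = 0.0637) and with the replicate number as a block (adjusted p = 0.0604).

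For miR-181d-5p, AVP neurons had 101 and 111 CPM, VIP neurons 619 and 427 CPM and CCK neurons 409 and 442 CPM. Both AVP libraries were lowest, and VIP and CCK overlapped. AVP fell by 2.28 on the log2 scale against VIP (SE 0.33, adjusted p = 0.00887) and by 2.0 against CCK (SE 0.33, adjusted p = 0.0205, limma), or to 0.203 and 0.249 of their means. Against VIP the call held without any 1 of the 6 libraries (-2.55 to -2.01, adjusted p = 0.0216 to 0.0405). Against CCK it was lost without AVP replicate 1 (adjusted p = 0.0687), CCK replicate 1 (0.137) or CCK replicate 2 (0.174), with quantile normalization (adjusted p = 0.0589) and with the replicate block (adjusted p = 0.0617). VIP against CCK gave 0.28, with a 95% interval of -0.61 to 1.16 (adjusted p = 0.604).

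For miR-181a-5p, AVP neurons had 1737 and 2079 CPM, VIP neurons 2199 and 1406 CPM and CCK neurons 3462 and 3262 CPM. AVP and VIP overlapped and CCK lay above both. The differences were 0.11 for AVP against VIP (adjusted p = 0.795; -0.54 with median-ratio scaling), -0.82 for AVP against CCK (adjusted p = 0.128) and -0.93 for VIP against CCK (adjusted p = 0.0664), in log2 units by limma. AVP against CCK passed without VIP replicate 1 or 2 (adjusted p = 0.042 and 0.0426) and in a fit of the 2 types alone (adjusted p = 0.0339), and VIP against CCK passed without VIP replicate 1 (-1.26, adjusted p = 0.0368) and with a minimum value of 1000 (adjusted p = 0.0462).

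For miR-181b-5p, AVP neurons had 186.5 and 194 CPM, VIP neurons 372 and 205 CPM and CCK neurons 530.5 and 386 CPM. The 3 types did not overlap in that order. The differences were -0.54 for AVP against VIP (adjusted p = 0.391), -1.25 for AVP against CCK (adjusted p = 0.131) and -0.71 for VIP against CCK (adjusted p = 0.304), and with median-ratio scaling the last became 0.11.

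In neurons the deposited scaling differed from median-ratio scaling by 0.64 (log2) for AVP against VIP, -0.17 for AVP against CCK and -0.82 for VIP against CCK. The ratio of miR-181d-5p to miR-181b-5p, which needs no scaling, was 0.557 ± 0.0240 in AVP neurons, 1.88 ± 0.300 in VIP neurons and 0.957 ± 0.263 in CCK neurons (SD, n = 2 each), with no overlap between the types.

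Of the 22 markers in the lists, 3 stood in the same order as miR-181c-5p among the neurons, with AVP lowest, VIP highest and no overlap. The share of all miRNAs in that order was not counted, and 58% to 64.6% of all did not overlap between pairs of types. The count is therefore not a result about the markers. In the list for ciliated cells and choroid plexus, miR-204-5p had 76.4 and 81.6 CPM in AVP neurons, 9453 and 7563 CPM in VIP neurons and 1255 and 1647 CPM in CCK neurons. Of the list's other members, miR-34b-3p and miR-449a-5p were at 0 in both VIP libraries, and miR-34c-5p was at 0 and 0.7 CPM there. The list summed to 83.8 to 290.0 CPM in AVP neurons, 7564 to 9453 CPM in VIP neurons and 1499.9 to 1914 CPM in CCK neurons. The neuronal marker miR-128-3p had 98.8 and 35.2 CPM in AVP neurons, 3619.8 and 2368.5 CPM in VIP neurons and 535 and 552.5 CPM in CCK neurons. In the same list, miR-9-5p was highest in AVP neurons (233 and 453 CPM) and lowest in VIP neurons (10.3 and 39.1 CPM). For miR-124-3p, AVP was lowest, and VIP and CCK overlapped. The vascular marker miR-126-3p was at 0 in both AVP libraries, with 57.6 and 54.2 CPM in VIP neurons and 2.10 and 10.2 CPM in CCK neurons. Of the other vascular markers, miR-126-5p was at 0 in both VIP libraries, with 70.8 and 0 CPM in AVP neurons. The remaining vascular markers, miR-143-3p and miR-145a-5p, were highest in CCK neurons. The oligodendrocyte marker miR-338-3p was also lowest in AVP neurons, with 134 and 20.9 CPM, but VIP (595 and 242 CPM) and CCK (443 and 509 CPM) overlapped. The part of these markers in the miR-181c-5p difference was not tested.

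The strands of miR-181c did not keep 1 ratio in neurons. The opposite strand miR-181c-3p had 74.6 and 0 CPM in AVP neurons, 6.00 and 25.8 CPM in VIP neurons and 25.5 and 8.20 CPM in CCK neurons, so AVP replicate 1 held 40 reads of it and 0 of the guide, while AVP replicate 2 held 0 and 18. It took 1.33% ± 1.51 of both strands in VIP and 3.41% ± 1.82 in CCK neurons (SD, n = 2 each), below the 15.7% to 18.8% of the tissues. The chromosome 1 strand miR-181a-1-3p was at 3.70 and 0 CPM in AVP neurons, 18.1 and 0 CPM in VIP neurons and 49.0 and 0 CPM in CCK neurons, so in each type 1 library listed it at 0. At 469808 to 908476 reads in the AVP and CCK libraries, such levels rest on at most 40 reads.

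At CT18, the question was which miRNAs respond in the LP libraries. No member passed the test. The levels of miR-181a-5p were 5644 and 6155 CPM in LP, against 6231 and 5718 CPM in CTRL. Those of miR-181b-5p were 1097 and 1149 CPM in LP, against 1018 and 1050.0 CPM in CTRL. Those of miR-181c-5p were 407 and 317 CPM in LP, against 281.5 and 359 CPM in CTRL, and those of miR-181d-5p were 821 and 715 CPM in LP, against 681 and 703.5 CPM in CTRL. The groups overlapped for miR-181a-5p and miR-181c-5p, and LP lay above CTRL for miR-181b-5p and miR-181d-5p, where 18.6% of all miRNAs tested did not overlap either.

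By limma, the differences of LP against CTRL were -0.02 for miR-181a-5p (95% interval -0.42 to 0.39), 0.12 for miR-181b-5p (-0.33 to 0.57), 0.18 for miR-181c-5p (-0.42 to 0.77) and 0.15 for miR-181d-5p (-0.33 to 0.63), all with an adjusted p of 0.992. The intervals leave room for changes of that size in either direction. Of 317 miRNAs tested, 0 passed (0%), and 1 had an unadjusted p under 0.05. The sign of miR-181a-5p and miR-181c-5p turned when single libraries were left out. As the CT18 libraries had little of the hypothalamic pair, the values hold for the libraries labelled SCN. Other miRNAs differed from SCN tissue as well, in both directions. In CTRL, miR-24-3p averaged 44.7 CPM against 4305 in SCN tissue, and miR-29a-3p 184 against 5177. In the same groups miR-27b-3p averaged 12133 against 8965 CPM, and miR-126-5p 292 against 120 CPM. The cause was not tested.

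Along the time course, the question was whether SCN miRNAs follow the time of day. No member passed the test for a 24 h rhythm, so the name clock-linked rests on other work and not on a rhythm called here. At ZT2, ZT6, ZT10, ZT14, ZT18, ZT22, ZT26, ZT30, ZT34, ZT38 and ZT42, miR-181a-5p had 1937, 2496, 1963.5, 2504, 2334, 2014, 1739, 2643, 2638, 2259 and 2609 CPM. It stayed within a 1.52-fold range, lowest at ZT26. At the same times, miR-181c-5p had 189.9, 192, 153, 187, 198, 178, 94.4, 229.5, 226, 154 and 221 CPM, again lowest at ZT26.

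The other pair was high early in the series. At those times, miR-181b-5p had 369.6, 381, 384, 279, 212, 201, 285, 231, 239, 278 and 261 CPM. For miR-181d-5p they were 260.2, 217, 167, 105, 102, 90.5, 168, 106.5, 106, 115 and 119 CPM. The 3 highest libraries were ZT2, ZT6 and ZT10 for miR-181b-5p and ZT2, ZT6 and ZT26 for miR-181d-5p. The level of miR-181d-5p was highest at ZT2, lowest at ZT22, and its range of 2.88-fold was the widest of the 4 members along the time course.

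The joint test of cosine and sine terms with a 24 h period gave amplitudes of 0.16, 0.23, 0.13 and 0.40 (log2, mean to peak) for miR-181a-5p, miR-181b-5p, miR-181c-5p and miR-181d-5p, with fitted peaks at 12.4, 7.12, 13.1 and 4.16 h. The adjusted p was 0.95 for all 4 (limma), and the smallest unadjusted p was 0.0983, for miR-181d-5p. Of 357 miRNAs tested, 0 passed (0%), and 6 had an unadjusted p under 0.05. Without ZT2, ZT6 and ZT10, which was chosen after the values were seen, the amplitude of miR-181d-5p was 0.14.

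The 5 libraries at late hours (14, 18 and 22 h of the day) were also set against the 6 at early hours (2, 6 and 10 h). For miR-181d-5p, late hours had 90.5 to 119 CPM with a median of 105, and early hours 106 to 260.2 CPM with a median of 168, so the groups overlapped. The difference was -0.61 ± 0.24 (log2, SE; adjusted p = 0.683, limma), with a 95% interval of -1.13 to -0.10. For miR-181b-5p, late hours had 201 to 279 CPM with a median of 261 and early hours 231 to 384 CPM with a median of 327, a difference of -0.34 ± 0.21 (adjusted p = 0.727). For miR-181a-5p and miR-181c-5p the differences were 0.08 and 0.10 (adjusted p = 0.928 and 0.936). No member passed, as for all miRNAs by limma (0 of 357, or 0%, with 20 at an unadjusted p under 0.05, miR-181d-5p among them). The libraries of late and early hours overlapped for all 4 members, while 0.56% of all miRNAs did not overlap.

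The days did not match. At the same hour of the day, ZT26, ZT30 and ZT34 of the second day had 168, 106.5 and 106 CPM of miR-181d-5p, against 260.2, 217 and 167 CPM at ZT2, ZT6 and ZT10 of the first. For miR-181b-5p they had 285, 231 and 239 CPM, against 369.6, 381 and 384 CPM. At ZT38 and ZT42, miR-181d-5p had 115 and 119 CPM, against 105 and 102 CPM at ZT14 and ZT18. On the first day alone, late hours were lower than early hours by -1.09 ± 0.26 for miR-181d-5p (log2, SE; adjusted p = 0.0107) and by -0.73 ± 0.24 for miR-181b-5p (adjusted p = 0.0503, limma); this split was chosen after the values were seen, and 15.4% of all miRNAs tested passed in it. On the second day the differences were -0.08 and 0.10 (adjusted p = 0.995 for both), where 0 of 319 miRNAs passed, 0 of them at an unadjusted p under 0.05. The difference between the days (second minus first), as an interaction term over 11 libraries, was 1.0 ± 0.38 for miR-181d-5p and 0.83 ± 0.31 for miR-181b-5p, each with an adjusted p of 0.146 (limma), and 2.8% of all miRNAs passed.

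Other miRNAs were high in some of the same libraries. At ZT2, ZT6 and ZT10, let-7e-5p had 4646.5, 5362 and 6311.5 CPM, against 1839.5 to 2847 CPM at the later 8 times. The hypothalamic marker miR-7a-5p had 40337 and 26371 CPM at ZT2 and ZT6, while its 13077 CPM at ZT10 lay within the 9000.3 to 15906 CPM of the later times. The part of let-7e-5p and miR-7a-5p in the course of miR-181b-5p and miR-181d-5p was not tested.

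**Figure D4:**
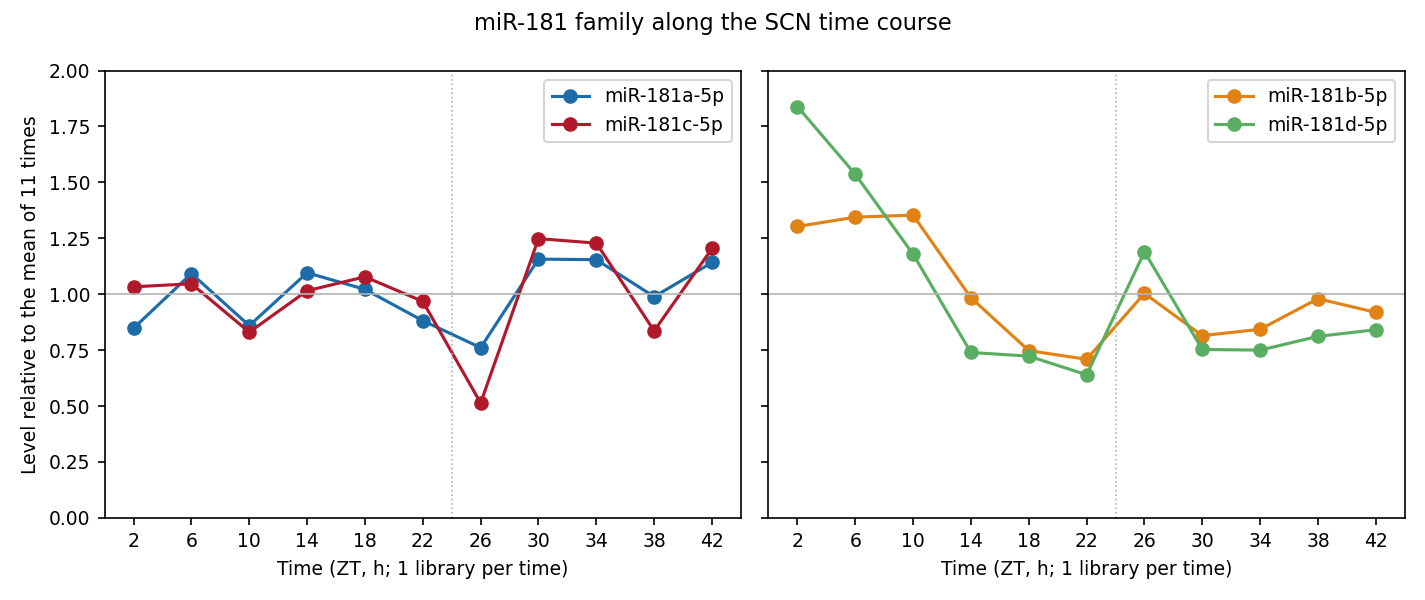
Levels of the 4 members along the time course as a ratio to each member's mean over 11 times, 1 library per time; the dotted line marks 24 h. Each panel holds members of separate clusters: miR-181a-5p and miR-181c-5p share their low point at ZT26, while miR-181b-5p is highest at ZT2, ZT6 and ZT10 and miR-181d-5p at ZT2, ZT6 and ZT26.

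Along the 11 times, miR-181a-5p went together with miR-181c-5p, and miR-181b-5p with miR-181d-5p, each from separate gene clusters. Levels of miR-181a-5p and miR-181c-5p correlated with Pearson r = 0.812 (permutation p = 0.00129, adjusted over 6 pairs 0.00387) and Spearman rho = 0.845 (permutation p = 0.00186, adjusted 0.00789), on log2 values. Without ZT2 and ZT26, the libraries farthest from the median of miR-181a-5p, r was 0.827. Without ZT2, ZT6 and ZT10 it was 0.91 over 8 libraries (exact permutation p = 0.00345, adjusted 0.0207). Over the 11 libraries, miR-181b-5p and miR-181d-5p had r = 0.882 (permutation p = 0.00025, adjusted 0.0015) and rho = 0.827 (permutation p = 0.00263, adjusted 0.00789). Pairs that share a cluster did not pass there: r was -0.287 for miR-181a-5p with miR-181b-5p and -0.29 for miR-181c-5p with miR-181d-5p. Because ZT2, ZT6 and ZT10 stood apart in miR-181b-5p, pairs with miR-181b-5p or miR-181d-5p are also given over the other 8. That subset was chosen after the values were seen. There miR-181b-5p and miR-181d-5p had r = 0.698 (exact permutation p = 0.0279, adjusted over 6 pairs 0.0838) and rho = 0.714 (exact permutation p = 0.0576, adjusted 0.173), and r was 0.539 without ZT18 and ZT22, so the relation did not pass within these libraries. Of the pairs that share a cluster, miR-181a-5p with miR-181b-5p had r = -0.094 (exact permutation p = 0.825, adjusted 0.825) and rho = -0.214 (exact permutation p = 0.619, adjusted 0.844), and -0.117 without ZT22 and ZT26. For miR-181c-5p with miR-181d-5p r was -0.764 (exact permutation p = 0.08, adjusted 0.16) and rho -0.167 (exact permutation p = 0.703, adjusted 0.844). Without ZT26 and ZT38 that r became 0.732, so it rests on those samples. Points of all pairs share library, depth and the scaling to a fixed total, and miR-181a-5p and miR-181c-5p, like miR-181b-5p and miR-181d-5p, are close in sequence. The part that shared reads have in these relations was not tested. Values as high were also seen outside the family. For the 3 outside miRNAs most alike to each member (named below), r along the 11 times was 0.474 to 0.878 for miR-181a-5p and 0.662 to 0.947 for miR-181b-5p. It was -0.444 to 0.894 for miR-181c-5p and 0.873 to 0.951 for miR-181d-5p. The relations are therefore not particular to pairs within the family.

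**Figure D5:**
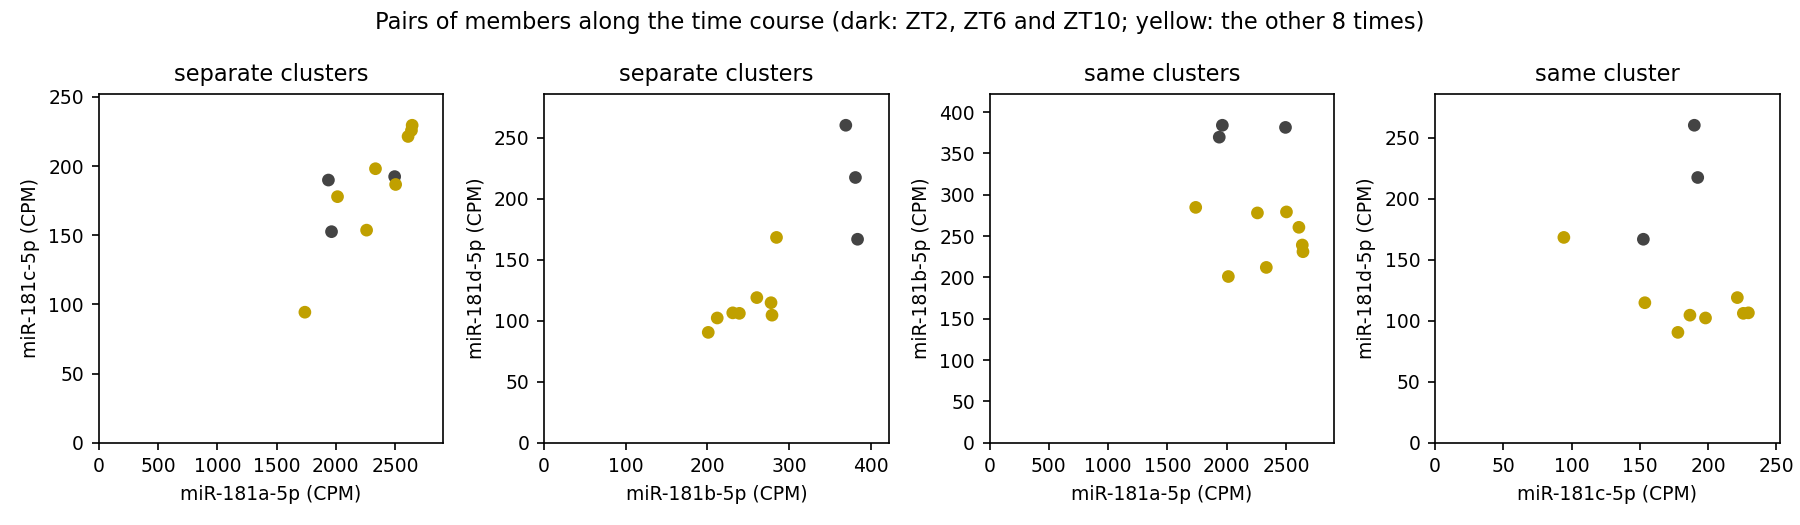
Levels in CPM of pairs of members along the time course, 1 point per library; the first 2 panels pair members of separate clusters and the last 2 pair members of the same cluster. The levels of miR-181a-5p and miR-181c-5p go up together (r = 0.812 over 11 libraries), as do those of miR-181b-5p and miR-181d-5p (r = 0.882). ZT2, ZT6 and ZT10 (dark points) have the highest miR-181b-5p.

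Over all 27 libraries, with each value centred on its set, the miRNAs outside the family whose log2 levels were most alike differed by member, among 265 candidates. For miR-181d-5p they were let-7e-5p (r = 0.936), let-7a-5p (0.913) and miR-98-5p (0.902), all of the let-7 family; without the neuron libraries the values were 0.834, 0.834 and 0.836. For miR-181b-5p they were miR-218-5p (0.789), let-7d-5p (0.730) and let-7b-5p (0.715), and without the neuron libraries 0.675, 0.553 and 0.612. For miR-181a-5p they were miR-145a-5p (0.744), miR-484 (0.701) and miR-30b-5p (0.690), and without the neuron libraries 0.484, 0.337 and 0.515. For miR-181c-5p they were miR-338-5p (0.980), miR-664-3p (0.961) and miR-325-3p (0.946), and without the neuron libraries their r was 0.080, 0.342 and 0.763. Like miR-181c-5p, each of those 3 was at 0 in AVP replicate 1. The libraries behind these values share their depth and scaling, and the correlations are a description.

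let-7e-5p followed miR-181d-5p in the neurons, with 1859.9 and 1875 CPM in AVP neurons, 22380.3 and 27029.7 CPM in VIP neurons and 17191 and 15168 CPM in CCK neurons. Its AVP libraries lay below all 4 others, as they did for miR-181d-5p. In tissue it had 5467 and 7491 CPM in SCN, 3963 and 4049.6 CPM in hypothalamus and 3560.4 and 3744 CPM in cortex, where SCN was highest.

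Of other miRNAs linked to the clock, 32 were listed from general knowledge and 32 were found. Between SCN and hypothalamus, 6 were higher and 17 lower of 29 tested, where 28% of all miRNAs tested were higher and 42.9% lower (median log2 difference -0.53 for the list and -0.29 for all). The smallest p belonged to miR-21a-5p, with 205 ± 21.6 CPM in SCN and 1312 ± 141 CPM in hypothalamus, and to miR-27b-3p, with 8965 ± 57.3 and 19787 ± 1329 CPM in the same groups (SD, n = 2 each; adjusted p = 1.13e-06 and 5.19e-06, limma). Between SCN and cortex, 7 were higher and 19 lower of 29, beside 41.3% and 38.9% of all (median -0.97 for the list and 0.06 for all). There miR-433-3p had 1631 ± 66.0 CPM in SCN and 221 ± 8.70 CPM in cortex, and miR-24-3p had 4305 ± 29.8 CPM in SCN and 16257 ± 67.8 CPM in cortex (SD, n = 2 each; adjusted p = 3.98e-08 and 4.06e-08, limma). Between hypothalamus and cortex, 8 were higher and 8 lower of 29, beside 41.8% and 16.4% of all (median 0.03 for the list and 0.41 for all). The smallest p were those of miR-124-3p, a neuronal miRNA, with 26958 ± 332 CPM in hypothalamus and 61376 ± 3561 CPM in cortex, and of miR-433-3p, with 636 ± 8.77 CPM in hypothalamus and 221 ± 8.70 CPM in cortex (SD, n = 2 each; adjusted p = 4.77e-06 and 6.57e-06, limma).

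In neurons, 6 of 22 were higher and 4 lower in AVP than in VIP, beside 18% and 14.8% of all miRNAs tested. The smallest p were those of miR-27b-3p, with 6066 ± 764 CPM in AVP and 117 ± 41.2 CPM in VIP (SD, n = 2 each; adjusted p = 0.00127, limma), and of miR-29a-3p, with 1616 ± 191 CPM in AVP and 4524 ± 463 CPM in VIP (SD, n = 2 each; adjusted p = 0.00686). Between AVP and CCK, 1 was higher and 3 lower of 22, beside 2.62% and 14.1% of all. There miR-194-5p and miR-29b-3p were listed at 0 in both AVP libraries, against 91.5 ± 33.2 and 73.7 ± 37.4 CPM in CCK (SD, n = 2; adjusted p = 0.00524 and 0.0117). Between VIP and CCK, 2 were higher and 7 lower of 22, beside 8.2% and 21.6% of all. There miR-27b-3p had 117 ± 41.2 CPM in VIP and 5224 ± 397 CPM in CCK (SD, n = 2 each; adjusted p = 0.00302), and miR-194-5p was at 0 in both VIP libraries (adjusted p = 0.00403, limma). As miR-194-5p was at 0 in the AVP and VIP libraries, it passed the filter through CCK alone, where it was high. Its p-values against AVP and VIP depend on that and on the pseudocount, so they are no separate support. No member of the family other than miR-181c-5p was at 0 in any library.

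At CT18 and along the time course, 0 members of the list passed (0 of 26, and 0 of 28 for the rhythm and for late against early hours, limma). The smallest p at CT18 were those of miR-24-3p, with 73.2 ± 28.5 CPM in LP and 44.7 ± 11.5 CPM in CTRL, and of miR-212-3p, with 141 ± 32.7 CPM in LP and 103 ± 0 CPM in CTRL (SD, n = 2 each; adjusted p = 0.992 for both, limma). Along the time course they were those of miR-20a-5p, which ran from 1.40 to 21.1 CPM with a median of 8.10 (rhythm, adjusted p = 0.95; late against early hours, adjusted p = 0.683), of miR-21a-5p (174 to 492 CPM; rhythm, adjusted p = 0.95) and of miR-191-5p (33548 to 51620.0 CPM; late against early hours, adjusted p = 0.683, limma). Among the members of the list and of the family at late against early hours, miR-20a-5p and miR-181d-5p were those with an unadjusted p under 0.05.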

How the data were processed

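Small RNA was sequenced from 27 libraries of C57BL/6 mice in 4 sets. Tissue was frozen, RNA extracted with Trizol and sequenced by Illumina protocols, per the labels. Bowtie and GRCm38 (mm10) are listed, with neither role nor version, per the submitters' processing notes. Each deposited value is a signal for 1 mature miRNA, a whole number rounded down after the authors scaled each library to about 1e+07. An unlisted miRNA was taken as 0, and CPM is the value divided by 10. Every value was a whole multiple of 1 step per library once rounded down, which gave the depth (469808 to 5133920 reads), the limits at 0 (3 reads) and exact Clopper-Pearson intervals (95%).

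Values were tested as log2(value + 1) in limma 3.58.1 under R 4.3.3. Each set had its own model, whose groups share 1 spread, without blocks. No count test was made. A miRNA was tested where 2 or more libraries (3 for the time course) reached a value of 100 (10 CPM), two-sided, with Benjamini-Hochberg adjustment and a threshold of 0.05. Tests were checked on simulated data. Correlations used 100000 permutations, or all permutations for 8 libraries (numpy 2.4.6, scipy 1.17.1, Python 3.11.15), and sequences were aligned with Biopython 1.88.

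The members, lists and tests were chosen with earlier results of these data known. Named by rule were the 4 members, their opposite strands, the 3 miRNAs most alike to each member (value of at least 100 in at least 20 of 27 libraries) and, per comparison, the 2 clock-linked miRNAs with the smallest p; any further miRNA was picked with its values in view. Alternatives were a pseudocount of 10, no filter, a minimum of 1000, median-ratio scaling, quantile normalization, the replicate number as a block, fits of the 2 groups alone, of each day alone or without ZT2, ZT6 and ZT10, and each library left out. Groups come from the labels, and 0 columns lacked a sample.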

Additional observations from a re-analysis of the deposited data

How the results depend on the processing

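Of the counts over all miRNAs, SCN against cortex gave 186 with a minimum value of 1000, AVP against CCK gave 33 with it, and VIP against CCK gave 56 with quantile normalization. Late against early hours gave 52 on the first day alone. Without 1 library, counts ran from 0 to 69 for AVP against CCK (0 without CCK replicate 1 or 2, 26 without AVP replicate 1), 1 to 92 for VIP against CCK (2 and 1 without CCK replicates 1 and 2, 52 without VIP replicate 2) and 0 to 21 for LP against CTRL (21 without LP replicate 2), where a lone library was assumed to vary like the other groups. Fewer libraries and, with the higher minimum, fewer miRNAs were tested there; otherwise the cause was not tested. Calls split as 106 higher and 162 lower for SCN against hypothalamus (128 and 134 with median-ratio scaling), 158 and 62 for hypothalamus against cortex (96 and 104), 55 and 45 for AVP against VIP (34 and 62), 8 and 43 for AVP against CCK (15 and 43) and 25 and 66 for VIP against CCK (38 and 32). With quantile normalization they split as 134 and 137 for SCN against hypothalamus, 79 and 93 for hypothalamus against cortex, 15 and 21 for AVP against CCK and 30 and 26 for VIP against CCK.

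Signs turned for values that had not passed, apart from miR-181d-5p between hypothalamus and cortex (-0.0489 with median-ratio scaling, -0.13 with quantile normalization). With median-ratio scaling and quantile normalization these were miR-181d-5p between SCN and hypothalamus (0.22 and 0.21), miR-181c-3p between hypothalamus and cortex (-0.22 and -0.19) and miR-181a-5p between AVP and VIP (-0.54 and -0.15), and with median-ratio scaling miR-181b-5p between VIP and CCK (0.11). Without 1 library they were miR-181d-5p between SCN and hypothalamus (-0.179 to 0.0913), miR-181c-5p between SCN and cortex (-0.189 to 0.0102), miR-181a-5p between AVP and VIP (-0.21 to 0.43), miR-181a-5p and miR-181c-5p between LP and CTRL (-0.0807 to 0.0441 and -0.0027 to 0.36) and miR-181c-5p at late against early hours (-0.0735 to 0.183). On the second day alone miR-181b-5p gave 0.10 at late against early hours.

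Deviations of libraries with the same replicate number correlated by -0.089 to 0.119 in tissue and neurons and by 0.25 at CT18. No label says that a number marks a shared animal, batch or day, and with 2 numbers a group the correlation cannot settle it, so the numbers were not used as pairs. The strand miR-181a-1-3p was at 0 in replicate 2 of each neuron type, and whether the number matters there was not tested. With the replicate block, VIP against CCK gave 46 calls, and apart from the calls of miR-181c-5p and miR-181d-5p given above it changed no other call of a member. Counts with the block were 267, 304 and 225 for SCN against hypothalamus, SCN against cortex and hypothalamus against cortex, 81 for AVP against VIP, 43 for AVP against CCK and 0 for LP against CTRL. Tests on recovered reads (edgeR, DESeq2) were not run, because the deposited values are rounded down. With 2 libraries a group and 1 per time, and at most 40 reads behind the opposite strands in AVP and CCK neurons, small differences in those strands were not detectable at this depth.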
